A study of Sus scrofa with 2 samples.

Results

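Expression of 9 genes of neurotrophic signalling was measured in PSI, a pig smooth muscle clone taken from the ileum. They were 5 secreted ligands (GDNF, NRTN, ARTN, BDNF and NTF3) and 4 receptors (GFRA1, GFRA2, GFRA3 and RET). The members were chosen by gene symbol as genes by which gut muscle can support enteric neurons, and all 9 were found among the 14857 symbols and 25880 identifiers of the table. The series holds 1 group, PSI cells in DMEM with fetal bovine serum and antibiotics, with 2 RNA-seq libraries and no tissue, untreated or other-cell sample. No genotype, age or treatment is given in the labels, and PSI is a single clone, so the values describe 1 cell population in culture. Levels are FPKM, fragments counted on a gene relative to its length and to the depth of its library, which allows different genes to be set side by side. Nothing in the labels places the duplicates in separate cultures, so each SD is the spread between 2 libraries and may be technical.

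The GDNF family ligands are small secreted proteins that dimerise and bind a co-receptor of the GFRA family, which is anchored in the cell membrane and has no signalling domain of its own. The complex then engages RET, the receptor tyrosine kinase that carries the signal into the cell. GDNF pairs best with GFRA1, neurturin (NRTN) with GFRA2 and artemin (ARTN) with GFRA3. BDNF and neurotrophin-3 (NTF3) belong to a separate family, the neurotrophins, whose receptors are the kinases NTRK2 and NTRK3 and the shared receptor NGFR. In the developing gut of mice, mesenchyme secretes GDNF, and neural crest cells carrying RET need it to enter the gut, divide and survive; loss of RET function in mice and humans leaves gut segments without ganglia.

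Of the 9 members, 4 were detected, meaning 1 FPKM or more in both libraries, where 61.5% of all gene symbols and 40.9% of all identifiers were. The 4 were BDNF, GFRA3, GDNF and GFRA1. Another 4 were measured above 0 and below 1 FPKM in both libraries, and GFRA2 was listed at 0. The members' median level was 0.665 FPKM, against 3.90 FPKM over all gene symbols. These counts describe 9 genes chosen for their function and were not tested.

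Among the GDNF family ligands, GDNF was the abundant one. It had 11.4 FPKM in replicate 1 and 12.0 FPKM in replicate 2, a mean of 11.7 ± 0.425 (SD, n = 2). The values came from 722 and 696 reads recovered from the steps of the table, so the counting error is small: the exact Poisson 95% interval ran from 10.6 to 12.3 FPKM in replicate 1 and from 11.2 to 13.0 in replicate 2. ARTN, which acts on sympathetic and sensory neurons in mice, had 0.386 FPKM in replicate 1 and 0.562 in replicate 2. NRTN, which maintains enteric neurons after birth in mice, had 0.207 and 0.239 FPKM in replicates 1 and 2. Neither of these ligands came near GDNF in either library. GDNF was 29.6-fold above ARTN in replicate 1 and 21.4-fold in replicate 2, and 55.3-fold and 50.4-fold above NRTN.

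The low ligands rested on few recovered reads. NRTN had at least 17 and 18 reads. At these reads, its Poisson interval ran from 0.120 to 0.331 FPKM in replicate 1 and from 0.142 to 0.378 in replicate 2. ARTN had at least 3 and 4 reads. These are the smallest whole reads that give the deposited values, at a length of 221 bp, and the true reads may be a multiple of them. Taken at these reads, the ARTN interval ran from 0.0796 to 1.13 FPKM in replicate 1 and from 0.153 to 1.44 in replicate 2. At these smallest reads, the interval did not place ARTN above or below 1 FPKM. If the true reads are more, the interval is narrower, so it sets no limit of the libraries themselves.

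Among the receptors, GFRA3 had the highest level. GFRA3 is the artemin co-receptor, known in mice from sympathetic and pain-sensing neurons and from early glia. Replicate 1 had 11.9 FPKM and replicate 2 had 13.0 FPKM, from 631 and 633 reads, with a mean of 12.5 ± 0.803 (SD, n = 2). GFRA1, the co-receptor of GDNF, had 1.54 and 1.47 FPKM in replicates 1 and 2, from 264 and 231 reads. RET, the kinase shared by the family, had 0.677 and 0.653 FPKM from 77 and 68 reads. Its Poisson interval ran from 0.535 to 0.847 FPKM in replicate 1 and from 0.507 to 0.828 in replicate 2, below 1 FPKM and above 0 in both. GFRA2, the neurturin co-receptor, was listed at 0 in both libraries. Without reads no length was recovered for it, so no upper limit was set on its level. For a gene of 1 kb, 1 read would be 0.0284 FPKM in replicate 1 and 0.0310 in replicate 2.

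**Figure D1:**
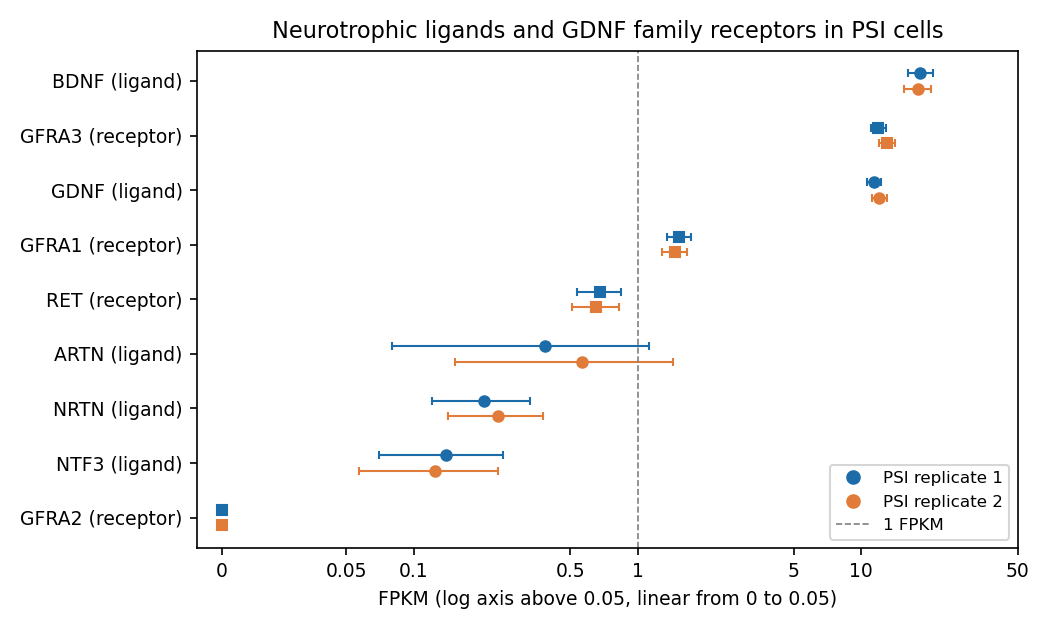
FPKM (horizontal axis, logarithmic above 0.05 and linear below) of the 9 members in PSI replicates 1 and 2; circles are ligands, squares are receptors, and bars are exact Poisson 95% intervals of the smallest whole reads that give each value. BDNF, GFRA3 and GDNF lie above 10 FPKM, GFRA1 lies just above 1 FPKM, and the other 5 lie below 1, with GFRA2 listed at 0.

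RET and GFRA3 are also genes of enteric neurons and glia, so the markers of those cells are given beside them. In a bulk sample, fewer cells of a type and less RNA per cell cannot be told apart. Of the 17 measured enteric neuron markers, 3 were detected (17.6%, against 61.5% of all gene symbols, a difference not tested). They were UCHL1 (239 and 236 FPKM in replicates 1 and 2), HAND2 (62.4 and 61.7) and TUBB3 (28.9 and 29.4), none of which is restricted to neurons. These 3 made up nearly the whole summed level of the list, 331 and 328 FPKM. The defining neuron genes ELAVL3, ELAVL4, PHOX2A, CHAT and VIP were listed at 0. Of the 10 measured glia and Schwann cell markers, FOXD3 was the single one detected (3.24 and 2.98 FPKM), or 10%, against 61.5% of all gene symbols. The list summed to 3.92 and 3.97 FPKM. SOX10, its defining transcription factor, had 0.137 and 0.140 FPKM, and CDH19 and FABP7 were listed at 0. S100B and SOX2 were not analysed here, and the part of other cells in the RET and GFRA3 values was not tested.

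Of the neurotrophin members, BDNF had the highest level of all 9. BDNF supports the survival and growth of sensory and central neurons. It had 18.3 FPKM in replicate 1 and 17.9 in replicate 2, a mean of 18.1 ± 0.330 (SD, n = 2), from at least 242 and 216 reads. NTF3 supports the differentiation of enteric neurons and glia in rodents. It had 0.140 and 0.125 FPKM in replicates 1 and 2, from at least 11 and 9 reads. BDNF was 131-fold above NTF3 in replicate 1 and 143-fold in replicate 2. The NTF3 interval ran from 0.0698 to 0.250 FPKM in replicate 1 and from 0.0571 to 0.237 in replicate 2, below the BDNF interval, which ran from 16.1 to 20.8 FPKM in replicate 1 and from 15.6 to 20.4 in replicate 2.

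Set side by side by pairing, the GDNF family ligands and receptors were present at uneven levels. GDNF exceeded its co-receptor GFRA1 in both libraries, 7.44-fold in replicate 1 and 8.19-fold in replicate 2; the log2 ratio of GFRA1 to GDNF was -2.96 ± 0.10 (SD, n = 2). The artemin pair ran the other way, with the receptor above the ligand: GFRA3 was 30.9-fold above ARTN in replicate 1 and 23.2-fold in replicate 2. No ratio is given for the neurturin pair, since GFRA2 was listed at 0. RET lay below the 2 detected co-receptors. GFRA3 was 17.6-fold above RET in replicate 1 and 20.0-fold in replicate 2, and GFRA1 was 2.27-fold and 2.25-fold above it. These are ratios of RNA levels in a single clone, and protein was not measured.

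The remaining genes around the family ranged from 0 to above GDNF. Persephin (PSPN) and GFRAL, the receptor of GDF15, were listed at 0, and GFRA4, the persephin co-receptor, had 0.0358 and 0.0390 FPKM from 1 read in each library. GDF15, a stress-induced distant relative of the family, had 3.28 and 3.73 FPKM. NCAM1, a cell adhesion molecule that can serve as a receptor of GDNF together with GFRA1 in the absence of RET, had 23.1 and 24.5 FPKM. SDC3, a heparan sulfate proteoglycan that binds GDNF, had 19.5 and 18.8 FPKM. Both of these alternative GDNF receptors were above GFRA1 and RET in both libraries. In all, 3 of the 6 genes on this list were detected (50%, against 61.5% of all gene symbols, a difference not tested).

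The receptors of the neurotrophins were at or near 0 apart from the sorting receptor SORT1. NTRK2, the kinase that BDNF activates, had 1 read in replicate 1 (0.00657 FPKM) and none in replicate 2. NTRK3, the kinase for NTF3, was listed at 0. NGFR, which binds every neurotrophin, had 0.105 and 0.114 FPKM from 13 reads in each library. SORT1, which binds the uncleaved precursors of neurotrophins, had 43.8 and 43.3 FPKM. Its relatives SORCS3 and SORL1 were listed at 0, and SORCS1 and SORCS2 had 0 in replicate 1 and 1 read each in replicate 2 (0.0101 and 0.0111 FPKM). NTF4, another ligand of NTRK2, had 0.359 and 0.600 FPKM. SORT1 was the 1 gene detected among the 9 on this list. That is a lower share than among all gene symbols, a difference not tested.

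**Figure D2:**
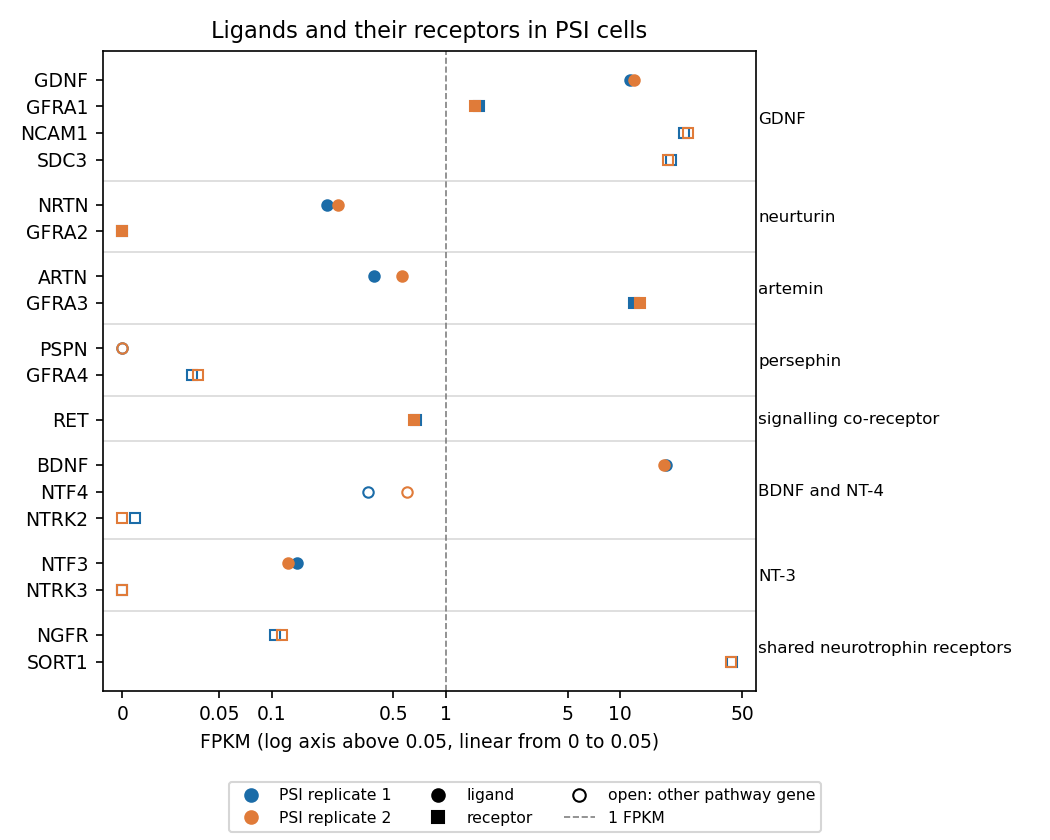
FPKM (horizontal axis, logarithmic above 0.05 and linear below) of ligands (circles) and receptors (squares) in PSI replicates 1 and 2, grouped by the ligand they belong to; filled symbols are members, open symbols other genes of the pathways. GDNF and BDNF lie above 10 FPKM while GFRA1 lies near 1.5 FPKM and NTRK2 at or near 0; GFRA3 lies above 10 FPKM and ARTN below 1.

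In the order of levels, the 8 members above 0 were BDNF, GFRA3, GDNF, GFRA1, RET, ARTN, NRTN and NTF3. GFRA2, listed at 0 with no upper limit set, was not placed. Of the 7 neighbouring pairs, 6 had library ranges that did not overlap. The exception was GFRA3 and GDNF: GFRA3 was 1.04-fold above GDNF in replicate 1 and 1.08-fold in replicate 2, but their ranges over the libraries overlapped, as did their Poisson intervals in each library. Counting error blurred the lower end further. The Poisson intervals of neighbours were apart in both libraries for BDNF over GFRA3, GDNF over GFRA1 and GFRA1 over RET, and they overlapped in both libraries from RET down to NTF3. All of these intervals were taken at the smallest reads, and those of ARTN rest on 3 and 4.

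BDNF, GFRA3 and GDNF stood in the upper part of the whole profile and the others in the lower. BDNF lay above 78.8% of all gene symbols, GFRA3 above 71.5% and GDNF above 70.1%. GFRA1 lay above 40.5%, RET above 35.7%, ARTN above 33.8%, NRTN above 30.5% and NTF3 above 28.1%. GFRA1, although detected, was therefore below the middle of the profile.

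**Figure D3:**
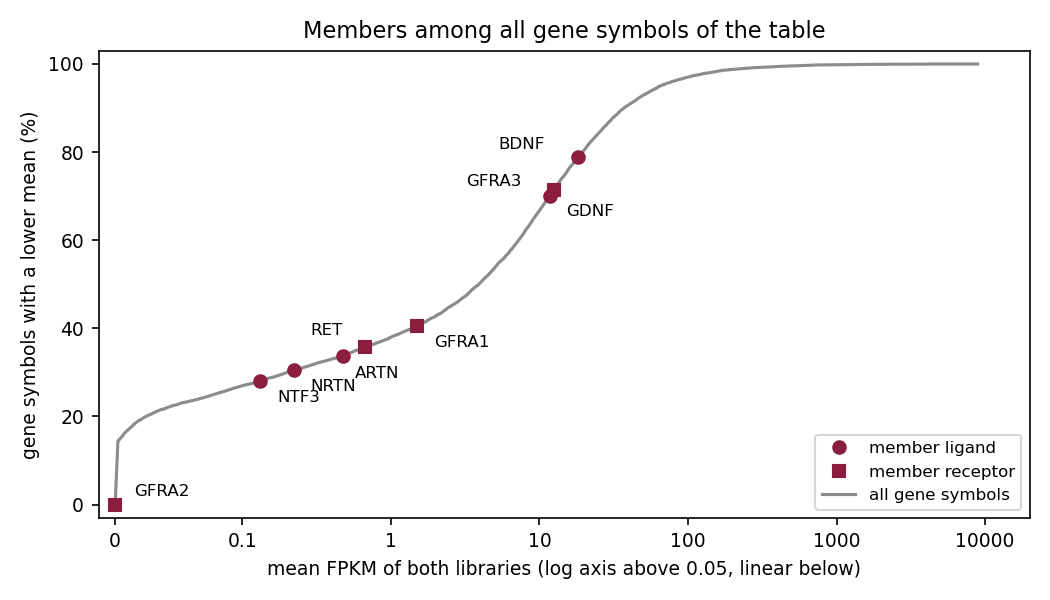
Percent of the gene symbols with a lower mean FPKM (vertical axis) against mean FPKM over both PSI libraries (horizontal axis, logarithmic above 0.05 and linear below); the grey line is all 14857 symbols, circles are member ligands and squares member receptors. BDNF, GFRA3 and GDNF sit between 70.1% and 78.8% and the other members at 40.5% or lower.

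The duplicates gave close values for the members. The coefficient of variation was 1.82% for BDNF, 2.58% for RET, 3.23% for GFRA1, 3.62% for GDNF and 6.43% for GFRA3, and reached 7.97% for NTF3, 10.2% for NRTN and 26.2% for ARTN. Of the 8 members with reads, 4 were higher in replicate 1 and 4 in replicate 2. None passed the two-sided exact binomial test of the recovered reads with Benjamini-Hochberg adjustment over 16327 identifiers, which called 1.11% of them. No member had an unadjusted p under 0.05 either; the lowest was 0.109 for GFRA3, with an adjusted p of 0.639. This is a comparison of libraries within 1 group, and since recovered reads can be fewer than the true ones it can miss a difference. At its smallest reads, 3 and 4, ARTN could not have been called at any split between the libraries. With 1.11% of identifiers called, the lack of a call says little about the members.

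Of the 22 adaptor and effector genes listed that carry the RET signal inside the cell, 18 were detected (81.8%, against 61.5% of all gene symbols, a difference not tested), and the list's median was 5.63 FPKM against 3.90 over all gene symbols. The highest was PTPN11, a phosphatase that links receptor kinases to the RAS pathway, at 62.5 and 64.6 FPKM in replicates 1 and 2. The adaptors GRB2 (40.7 and 41.0), GRB10 (36.3 and 36.9) and SHC1 (34.5 and 34.6) came next. These genes serve many receptor kinases. Among the docking proteins on the list, DOK1 had 15.2 and 15.5 FPKM, FRS2 had 5.44 and 5.96 and DOK6 had 4.26 and 4.48. DOK4 had 4.09 and 4.14, DOK2 had 1.34 and 1.11 and DOK5 had 0.534 and 0.647. GAB1 had 6.85 and 5.44 FPKM, GAB2 3.51 and 4.03, IRS1 3.69 and 3.42 and IRS2 1.71 and 1.28.

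Neurotrophins and GDNF are made as precursors that proteases cut to the mature form. The list around this step holds such proteases, plasmin activators, the inhibitor SERPINE2 and the lysosomal protease CTSB. Of its 11 measured genes, 8 were detected (72.7%, near the 61.5% of all gene symbols), with a median of 22.5 FPKM. Count and median thus do not describe the cutting proteases alone. FURIN, which cleaves precursors inside the cell, had 56.5 and 56.2 FPKM in replicates 1 and 2, and its relatives PCSK6, PCSK7 and PCSK5 had means of 22.5, 13.8 and 3.87. Outside the cell, plasmin can cleave the BDNF precursor: PLAT, its tissue-type activator, had 66.5 and 65.4 FPKM, PLAU, its urokinase-type activator, had 102 FPKM in each library, and PLG, the precursor of plasmin, was listed at 0. SERPINE2, an inhibitor of such proteases, was the highest of those reported here and had 713 and 703 FPKM, and the lysosomal protease CTSB had 171 and 173. MMP7, which can also cleave the precursors, was listed at 0.

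Of the other secreted factors that act on neurons, 11 of 13 measured genes were detected (84.6%, against 61.5% of all gene symbols, a difference not tested), with a median of 12.1 FPKM. MDK, the growth factor midkine, had 260 and 265 FPKM in replicates 1 and 2. LIF, a cytokine of the interleukin-6 family with effects on neurons and glia, had 46.1 and 44.8 FPKM, and MANF, an endoplasmic reticulum protein with neurotrophic activity, had 45.2 and 44.5. CLCF1, a ligand of the ciliary neurotrophic factor receptor, had 34.0 and 33.2 FPKM. GDNF and BDNF thus lay within the range of this list, near its median and below MDK, LIF, MANF and CLCF1 in both libraries. IGF1 was listed at 0.

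Of the 14 measured receptors through which these other factors act, 8 were detected (57.1%, near the 61.5% of all gene symbols), led by IGF1R (26.6 and 27.0 FPKM in replicates 1 and 2), IL6ST (20.6 and 21.0), BMPR2 (17.2 and 17.6) and BMPR1A (15.7 and 17.1). LIFR, the LIF receptor, had 3.69 and 4.30 FPKM, whereas CNTFR, the binding subunit for CLCF1, had 0.282 and 0.199. EDNRB, which with RET is needed for the enteric nervous system in mice and humans, had 0.214 and 0.167 FPKM.

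By RefSeq on Sscrofa11.1, the 9 members are protein-coding genes spread over 5 chromosomes, and none of their loci overlaps another annotated gene. BDNF (ENSSSCG00000013333) lies on chromosome 2 from 32623668 to 32679293, NRTN (ENSSSCG00000033413) on chromosome 2 from 73174285 to 73188382 and GFRA3 (ENSSSCG00000014329) on chromosome 2 from 140263297 to 140283227. GDNF (ENSSSCG00000038727) lies on chromosome 16 from 22936602 to 22965929, ARTN (ENSSSCG00000034778) on chromosome 6 from 167356363 to 167361370 and NTF3 (ENSSSCG00000033544) on chromosome 5 from 65052608 to 65122645. RET (ENSSSCG00000010199) lies on chromosome 14 from 61305818 to 61361416 and GFRA1 (ENSSSCG00000010655) on chromosome 14 from 126273558 to 126499957. GFRA2 (ENSSSCG00000009605) is the exception in having 2 RefSeq loci with its symbol, both on chromosome 14, from 3138174 to 3209687 and from 5743583 to 5837470, 2.53 Mb apart. The table holds 1 identifier named GFRA2, and reads that align equally to several places are dropped by HTSeq in its usual settings, so its 0 is uncertain. The loci span from 5008 bp for ARTN to 226400 bp for GFRA1, and the FPKM values do not separate exons or isoforms.

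Identifiers and symbols were joined by name, so the pairing was checked by position where possible. The Ensembl numbers of BDNF, GFRA3, GFRA1, RET and GFRA2 lie in stretches that follow chromosome order, and the 10 named identifiers nearest in number to each carried symbols that RefSeq places on the member's own chromosome. The numbers of GDNF, ARTN, NRTN and NTF3 lie in stretches without such an order, where from 5.5% to 9% of consecutive identifiers share a chromosome, so their pairing was not tested. In all, 155 member and list genes were looked at. The pairing of list genes outside ordered stretches was not tested either. They include UCHL1, HAND2, FOXD3, SOX10, PTPN11, LIF, MANF, GDF15 and CTSB. Of 102 member and list genes in ordered stretches, MYH11 was the 1 with none of its 10 neighbours on its own chromosome. The value under that name, 0.461 and 0.522 FPKM in replicates 1 and 2, was set aside when the cell label was checked. MYH11 stayed in the count of smooth muscle markers, of which 9 of 10 were detected (90%, against 61.5% of all gene symbols, not tested). MYH11 was the 1 marker of that list not detected. The cell label was checked on the other smooth muscle markers. ACTA2 had 702 and 685 FPKM in replicates 1 and 2, ACTG2 489 and 468, CALD1 455 and 458 and CNN1 253 and 255, and DES had 2.74 and 3.06. TAGLN, a main marker of smooth muscle, had 5.34 and 5.58 FPKM, below ACTA2, ACTG2, CALD1 and CNN1 in both libraries. Of the fibroblast markers, 5 of 7 measured were detected (71.4%, against 61.5% of all gene symbols, a difference not tested). S100A4 had 417 and 400 FPKM in replicates 1 and 2. The others detected were far lower: TCF21 (3.76 and 4.04), PDGFRA (2.25 and 2.23), DCN (2.52 and 1.89) and LUM (1.65 and 1.61). FAP had 0.138 and 0.174 FPKM, and CD34 had 0 and 0.00550. Of the leukocyte markers, 3 of 7 were detected (42.9%, against 61.5% of all gene symbols, not tested). They were CD14 (2.34 and 2.23), CORO1A (1.48 and 1.65) and CD68 (1.17 and 1.32), and PTPRC and CD3E were listed at 0. Of the endothelial markers, 1 of 5 was detected (20%, against the same 61.5%), PECAM1 at 1.92 and 1.60 FPKM, and CDH5, KDR and TIE1 were listed at 0. None of the 8 epithelial markers was detected (0%, against the same 61.5%). Low values need care in this table, since TPI1 (0.424 and 0.224 FPKM) and RPL29 (0 in both libraries), genes that nearly every cell uses, were also under 1 FPKM.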

How the data were processed

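RNA-seq of 2 PSI libraries was analysed. The authors deposited FPKM values per gene and library; the submitters' processing notes name TopHat2 2.0.12, HTSeq 0.6.1 and Sscrofa11.1. The annotation release and strand setting were not given in the sources used here. Symbols came from a gene name table that matched 14857 of 25880 identifiers. FPKM values step by whole reads, which gave library totals of 35176565 and 32217729; each gene was given the smallest length, searched between 50 and 30000 bp, at which its reads in both libraries were whole (tolerance 1.2 times the deposited rounding), which succeeded for 100% of the 16327 genes above 0. Such reads are the smallest possible and carry no molecular identifiers, so intervals cover counting error only. At 1 FPKM a 2 kb gene has 70.4 and 64.4 reads. On simulated libraries of 25880 genes, 83.8% of genes with reads received their true reads, none more, and 92% of 200 genes changed 2-fold were called. The changed genes were drawn from identifiers with a mean of 1 FPKM or more. That share therefore does not cover RET, ARTN, NRTN and NTF3, which had lower means. With 1 group, levels were not tested; libraries were compared by an exact binomial test, two-sided, with Benjamini-Hochberg adjustment (threshold 0.05; SciPy 1.17.1). Means are arithmetic, and log2 values are log2(FPKM + 1); ratios had no pseudocount. Alternatives changed the detection level, pseudocount, scaling and libraries. The members, lists and rule for named genes (every member, the remaining GDNF and neurotrophin genes, and the 4 highest of each other list) were chosen with earlier results of these data known; further genes were named for their role, and marker lists are partly summarised. List genes with no matching symbol were not analysed here, and some list genes are not reported here and were left out of the counts.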

Additional observations from a re-analysis of the deposited data

How the results depend on the processing

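The count of members detected, 4 with 1 FPKM in both libraries, was 5 at 0.5 FPKM, where RET joined, and 3 at 2 FPKM, where GFRA1 dropped out; 65.2% and 56.8% of all gene symbols passed these levels. With FPKM rescaled to sum to 1000000 per library, which raises values above 0 by 1.44 in log2 of the level with no pseudocount, it was 6, as RET and ARTN passed, and 66.7% of all symbols passed. Without replicate 1 or without replicate 2 it was 4. Among the other lists, at 2 FPKM the fibroblast markers detected numbered 3 in place of 5. Endothelium markers at this level numbered 0 in place of 1 and leukocyte markers 1 in place of 3. The list for interstitial cells of Cajal holds 3 measured markers, ETV1, ANO1 and KIT. At 1 FPKM, ETV1 was the 1 detected, and ANO1 and KIT were below this level in both libraries. This is a lower share than among all gene symbols, a difference not tested. At 0.5 FPKM 2 were detected, as ANO1 joined, and after rescaling all 3 were. The other list counts stayed within 1.5 times their values under each alternative. A pseudocount of 0.1 must lower every log2 level, so a shift was fixed in advance. It exceeded the spread for each of the 9 members, and for GFRA2, listed at 0, that spread was 0. Of the ratios, 4 of 11 moved by more than their spread, with no change of sign. The comparison of the libraries called 182 of 16327 identifiers (1.11%) and 0 members. Median ratio scaling called 178 of these identifiers and 0 members. With 10 or more reads per identifier, 220 identifiers and 0 members were called. With so few identifiers called, 0 calls says little about the members. No paired analysis was possible because the series holds 1 group. Few recovered reads limit NRTN and NTF3, each under 20 per library. ARTN also had under 20. Recovered reads are a minimum for every gene, so the true counting error of NRTN, NTF3 and ARTN is not known.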
